A study of Mus musculus with 2 samples.

Results

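The GABA-A receptor genes examined here were Gabra2, Gabra5, Gabrb1, Gabrb2, Gabrg1, Gabrg3 and Gabrd, 7 of the 21911 mouse protein-coding genes of the annotation (GENCODE M21). They were taken by name, 6 subunit genes from clusters on chromosomes 5, 7 and 11, and Gabrd, which lies apart on chromosome 4. Each was described over its gene body and 50 kb on either side on mm10, called its window here. The measurement was DNase-seq, in which the enzyme DNase I cuts DNA that is open in the nucleus, so that regulatory sequences in use are cut more than packed chromatin. The cells were MN1, a mouse line that the labels call immortalized, from strain B6NCrl. The study has 1 group, for which the labels give no treatment, with 2 biological replicates (replicate 1 and replicate 2) of 1 library each. The labels give the developmental stage and age as unknown and the sex as not collected, and they name no tissue of origin.

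GABA-A receptors are chloride channels of the cell membrane that open when they bind GABA, the main inhibitory transmitter of the adult brain. They are assembled from several subunits. Alpha subunits (Gabra genes) and beta subunits (Gabrb genes) form the GABA binding site between them. Gamma subunits (Gabrg genes) take part in binding benzodiazepines and in holding receptors at synapses. The delta subunit, encoded by Gabrd, takes the place of gamma in receptors that lie outside synapses. Most subunit genes stand in clusters that hold alpha, beta and gamma genes next to each other, and the genes of a cluster are often active in different sets of neurons.

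The replicates had 170600 and 162983 distinct deposited peaks (replicate 1 and replicate 2), each a stretch of 150 bp called as open. Peaks that the libraries had in common (an overlap of at least 1 bp) are called shared. On the main chromosomes the shared part was 67.1% of the list of replicate 1 and 70.2% of that of replicate 2. Counts of shared peaks are on the list of replicate 1 unless stated. The deposited hotspots are regions of varying width with a q-value for enriched cutting, and they covered 58.8 Mb and 54.1 Mb. The authors' peak score (1 to 150) has no stated normalization and serves here as a rank within each list, given as a percentile. The read depth is unknown, so a missing peak means only that none was called at the depth and threshold of that library. No comparison of conditions is possible with 1 group, so every value is a description, and the main counts are set beside the same count over all protein-coding genes. Of the cell type markers, a promoter peak in both libraries was present at 5 of 5 pan-neuronal genes (Tubb3, Nefh, Map2, Syt1 and Rbfox3) and at 5 of 7 motor neuron genes (Isl1, Isl2, Lhx3, Chat and Slc18a3, but not Mnx1 or Slc5a7). It was also present at 3 of 4 fibroblast genes (Col1a1, Col1a2 and Pdgfra, but not Lum), 1 of 4 astrocyte genes (Gfap), 1 of 4 microglial and myeloid genes (Cx3cr1) and 0 of 4 oligodendrocyte genes. Over all protein-coding genes the share was 58.9%, and no list was compared with it by a test. A promoter was taken as the region within 1 kb of any annotated start site. At Col1a2 the nearest shared peak lay 15.8 kb from the outermost start. The part of these markers in the results on the receptor genes was not tested.

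The DNA of the places on which the description turns is shown first, each 5′ to 3′ on the strand given with its position. In the first 6 lines the capitals mark CG dinucleotides, because most genes with CG-rich promoters had a promoter peak, and in the last line they mark the motif TAATTA. The first line is the promoter peak of Gabrd (chr4:155397976-155398125, minus strand). The next lines are promoters without a peak, from RefSeq (GRCm38.p6) and 300 bases long around a start site, of Gabra2 (chr5:71095800-71096099, minus strand), Gabrb1 (chr5:71657671-71657970, plus strand) and Gabrg1 (chr5:70842568-70842867, minus strand). They are followed by the shared peaks with the highest scores in the windows of chromosomes 4 and 5, which lie at promoters of other genes, Cfap74 (chr4:155409096-155409245, minus strand) and Commd8 (chr5:72168116-72168265, plus strand). The last is the shared peak inside Gabrb2 (chr11:42532636-42532785, plus strand).
Gabrd promoter peak: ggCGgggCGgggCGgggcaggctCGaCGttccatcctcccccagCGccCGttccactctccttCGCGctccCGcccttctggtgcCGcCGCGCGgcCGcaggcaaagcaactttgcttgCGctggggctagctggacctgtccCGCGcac
Gabra2 promoter without a peak: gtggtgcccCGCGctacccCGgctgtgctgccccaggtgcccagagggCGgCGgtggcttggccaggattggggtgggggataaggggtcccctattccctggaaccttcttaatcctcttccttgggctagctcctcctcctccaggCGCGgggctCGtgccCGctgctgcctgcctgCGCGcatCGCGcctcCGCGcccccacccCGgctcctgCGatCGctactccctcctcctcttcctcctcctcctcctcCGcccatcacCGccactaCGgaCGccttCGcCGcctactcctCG
Gabrb1 promoter without a peak: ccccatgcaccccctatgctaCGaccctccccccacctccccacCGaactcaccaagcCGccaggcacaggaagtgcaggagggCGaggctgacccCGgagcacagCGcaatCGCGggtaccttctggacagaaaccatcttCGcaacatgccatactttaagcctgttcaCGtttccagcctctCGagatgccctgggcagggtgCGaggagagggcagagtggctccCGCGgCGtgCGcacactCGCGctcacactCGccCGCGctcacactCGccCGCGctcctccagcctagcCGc
Gabrg1 promoter without a peak: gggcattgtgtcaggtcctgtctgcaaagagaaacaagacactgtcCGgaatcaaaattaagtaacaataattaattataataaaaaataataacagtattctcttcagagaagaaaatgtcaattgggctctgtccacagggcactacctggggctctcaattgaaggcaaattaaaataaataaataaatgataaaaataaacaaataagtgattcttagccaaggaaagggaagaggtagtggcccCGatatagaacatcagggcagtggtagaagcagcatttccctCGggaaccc
Cfap74 promoter peak: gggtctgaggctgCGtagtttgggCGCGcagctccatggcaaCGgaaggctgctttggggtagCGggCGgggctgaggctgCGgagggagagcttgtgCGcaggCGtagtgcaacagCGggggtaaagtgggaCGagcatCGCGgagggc
Commd8 promoter peak: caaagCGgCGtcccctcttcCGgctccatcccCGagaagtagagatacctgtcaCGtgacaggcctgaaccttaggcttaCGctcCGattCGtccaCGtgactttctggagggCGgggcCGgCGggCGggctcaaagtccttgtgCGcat
Gabrb2 intron peak: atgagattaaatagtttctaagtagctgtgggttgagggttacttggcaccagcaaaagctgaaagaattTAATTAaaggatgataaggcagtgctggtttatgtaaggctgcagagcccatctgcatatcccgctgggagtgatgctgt
The Gabrd peak held 18 CG dinucleotides in its 150 bases and was 73.3% G or C. The Gabra2 and Gabrb1 promoters, which had no peak, also held many, 25 each in 300 bases, at a GC content of 70.0% and 66.0%. The Gabrg1 promoter held 3 in 300 bases and was 38.3% G or C. The 3 promoters without a peak shown here thus ranged from rich to poor in CG. They are 300 bases long and the Gabrd peak 150, so their counts cannot be set directly against its count.

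Gabrd was the 1 gene of the 7 whose promoter carried a peak in both libraries, where a promoter is the region within 1 kb of any annotated start site of the gene. Over all protein-coding genes the share was 58.9%. The other 6 (Gabrg1, Gabra2, Gabrb1, Gabrg3, Gabra5 and Gabrb2) had a promoter peak in neither library, which held for 37.5% of all genes. Hotspots gave the same picture at the promoters: a hotspot in both libraries at 1 of 7 genes, again Gabrd, against 59.4% of all genes, and none in either library at the other 6. Inside the gene body, 2 of 7 genes had a shared peak (Gabrd and Gabrb2), against 62.2% of all genes. Within the window it was 3 of 7 (Gabrd, Gabrb1 and Gabrb2), against 83.5%. No peak of either library lay in the windows of 2 of 7 genes, Gabrg1 and Gabra2, against 9.83% of all genes. The 7 genes stand at 4 places in the genome, and genes of 1 place are not independent of each other.

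**Figure D1:**
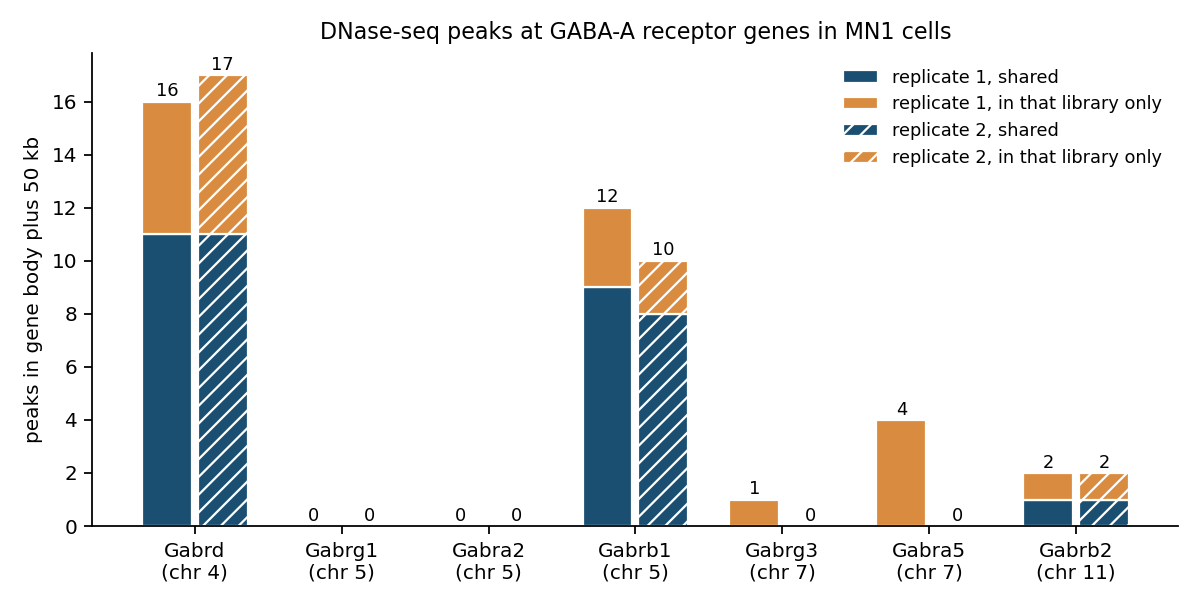
Number of peaks in the gene body plus 50 kb (vertical axis) for each of the 7 genes, replicate 1 as plain bars and replicate 2 as hatched bars, with shared peaks in blue and peaks of 1 library only in orange. Gabrd (16 and 17 peaks) and Gabrb1 (12 and 10) hold most peaks, Gabrg1 and Gabra2 hold 0, and Gabrg3 and Gabra5 hold peaks of replicate 1 only.

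The windows covered 2.34 Mb together and held 34 distinct peaks of replicate 1 and 29 of replicate 2. Of these, 21 were shared when counted on the list of replicate 1 and 20 on that of replicate 2, because 2 overlapping peaks of replicate 1 met the same peak of replicate 2. That is 0.899 shared peaks per 100 kb in the windows, against 4.19 over the genome, both over the pooled length. The median over the windows of single genes, a different measure, was 0 for the 7 members and 7.76 for all protein-coding genes. Hotspots covered 0.452% of the windows in replicate 1 and 0.405% in replicate 2, against 2.16% and 1.98% of the genome. Of the 21 shared peaks, 9 lay at promoters, 1 of them that of Gabrd and the other 8 those of neighbouring genes. Only 2 of the 21 lay inside a member gene.

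Gabrd, the gene of the delta subunit, was the one gene of the 7 with a peak at its start (ENSMUSG00000029054.8, chr4:155384980-155398112, minus strand, 13.1 kb). Its promoter peak lay at chr4:155397976-155398125 in replicate 1, with a score of 74 (percentile 72.3), and at chr4:155397996-155398145 in replicate 2, with a score of 89 (percentile 83.8). The 2 peaks overlapped over 130 bp, and their centres were 61 bp and 41 bp inside the outermost start site. They covered 137 and 117 bases of the untranslated part of the first exon of Gabrd-201. Both lay in hotspots whose −log10 q was at the cap of 100 (716 bp long in replicate 1, 882 bp in replicate 2). The peak was thus present in both libraries, at a higher percentile of the list in replicate 2.

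Replicate 2 had a further promoter peak at chr4:155397636-155397785 (score 33, percentile 41.5). It overlapped, but did not lie whole within, the replicate 1 hotspot of the promoter peak (chr4:155397655-155398370). Replicate 1 had no peak at that place. An intron 1 peak of replicate 2 lay at chr4:155396916-155397065 (score 19, percentile 14.1). Replicate 1 had no other peak in the gene. The Gabrd window as a whole held 9.72 shared peaks per 100 kb, and 58.3% of all protein-coding genes had as few or fewer. Its hotspots covered 5.71% of the window in replicate 1 and 5.56% in replicate 2. The peaks with the highest scores in the window lay 11.1 kb upstream at the promoter of Cfap74 (scores of 134 and 137 in replicates 1 and 2) and 52.3 kb downstream at a promoter of Prkcz, which encodes a protein kinase C (123 and 125). A second shared peak at Cfap74 scored 117 and 116. The 3 shared peaks outside promoters lay between Prkcz and Gabrd, 27.1 to 29.2 kb downstream of the Gabrd start.

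**Figure D2:**
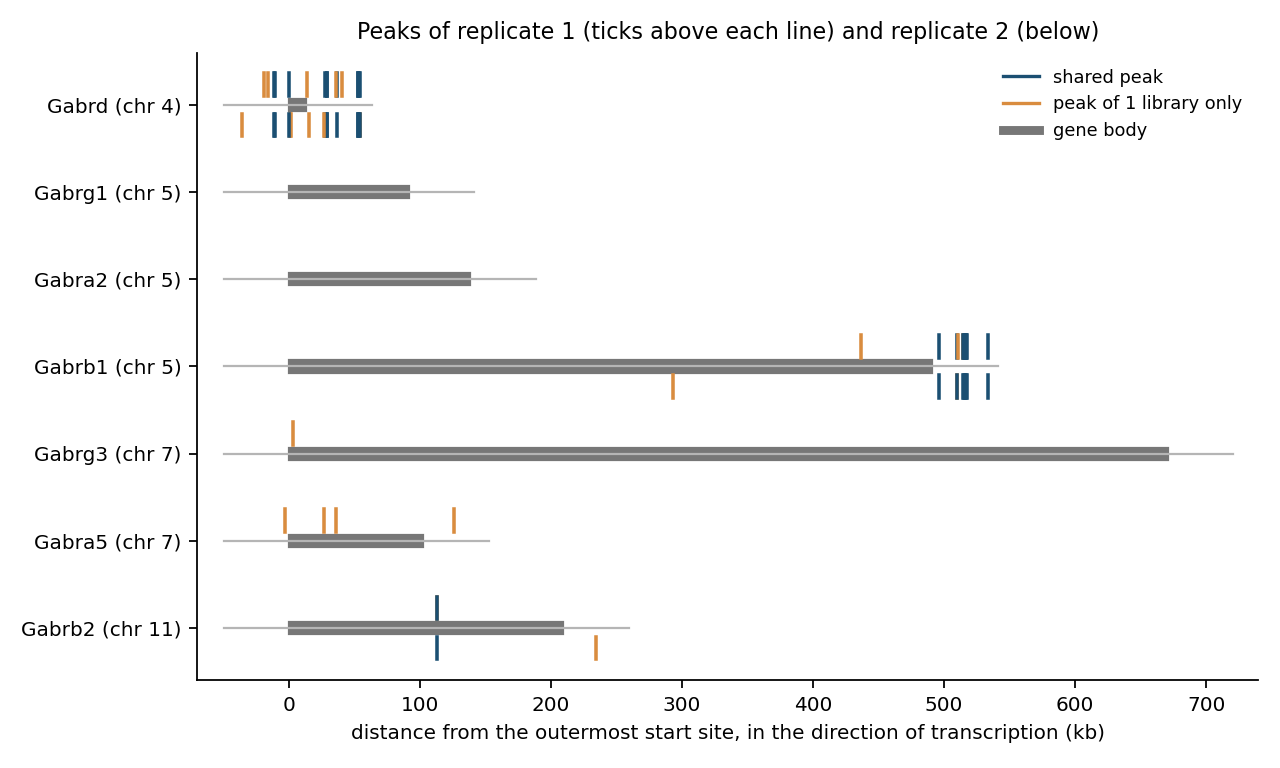
Position of every peak in the 7 windows as distance from the outermost start site in the direction of transcription (horizontal axis, kb). Ticks above a line are replicate 1 and ticks below are replicate 2, blue for shared peaks and orange for peaks of 1 library, and the thick bar is the gene body. The blue ticks at Gabrb1 lie past the end of the gene, from 496 to 533 kb, and the Gabrg1 and Gabra2 lines carry no tick.

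The chromosome 5 cluster holds Gabrg1, Gabra2, Gabra4 and Gabrb1 in this order, with Cox7b2 between Gabra2 and Gabra4, over 1.40 Mb. Gabrg1 (ENSMUSG00000001260.10, chr5:70751047-70842617, minus strand, 91.6 kb) encodes a gamma subunit. Gabra2 (ENSMUSG00000000560.9, chr5:70957597-71095849, minus strand, 138 kb) encodes an alpha subunit found in many forebrain receptors. Neither gene had a peak or a hotspot of either library in its window. Measured from the outermost start, the nearest shared peak was 660 kb away for Gabrg1 and 406 kb for Gabra2, against a median of 0.322 kb over all genes. Only 3.02% and 5.28% of all genes were as far from a shared peak or farther.

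Both genes lay whole within 1 stretch without a peak of either library, chr5:69613486-71201015, 1.59 Mb long. It ranked 59 among the 2942 such stretches of 100 kb or more on the autosomes, so 2.01% were as long or longer, and the median was 0.18 Mb. The windows of both genes held no unknown bases. The stretch was 37.2% G or C and 44.0% of it was marked as repeats. In the windows the share marked as repeats was 37.3% for Gabrg1 and 34.3% for Gabra2. Reads can be harder to place in repeats, and the part of repeats in the missing peaks was not tested. In replicate 2 alone the stretch was longer, 1.89 Mb. Past its ends, the next genes Gnpda2 and Cox7b2 carried promoter peaks in both libraries.

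Gabrb1 (ENSMUSG00000029212.11, chr5:71658113-72149037, plus strand, 491 kb), a beta subunit gene, starts 0.195 kb from the start of Gabra4, which runs the other way. This shared promoter region carried no peak for either gene. The CG-rich RefSeq promoter of Gabrb1 shown above lies beside it and ends before both of these start sites. The nearest shared peak was 110 kb away, at Cox7b2. Inside the gene there was 1 peak in each library and none was shared: chr5:72094716-72094865 in replicate 1 (score 54) and chr5:71951516-71951665 in replicate 2 (score 18), both in introns. The 9 shared peaks of the window all lay past the 3′ end of the gene, 496 to 533 kb from its start. The highest of them was the promoter peak of Commd8 (scores of 129 and 120 in replicates 1 and 2), which encodes a COMM domain protein. The next were chr5:72175576-72175725 (75 and 61) and chr5:72172816-72172965 (79 and 45), both outside promoters. Without its downstream flank the gene would count no shared peak.

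On chromosome 7 the members are Gabrg3 and Gabra5. Gabrg3 (ENSMUSG00000055026.13, chr7:56716465-57387188, minus strand, 671 kb) encodes a gamma subunit, and Gabra5 (ENSMUSG00000055078.7, chr7:57407672-57510059, minus strand, 102 kb) an alpha subunit known for its high level in the hippocampus. The windows of these 2 genes held 4 distinct peaks of replicate 1 and 0 of replicate 2, so none was shared. The peak of replicate 1 in Gabrg3 lay in intron 1, at chr7:57384236-57384385, 2.88 kb inside the gene (score 24, percentile 10.2). Of those at Gabra5, 2 lay in introns, at chr7:57474276-57474425 (score 34) and chr7:57483056-57483205 (score 29), and the third 3.09 kb upstream, at chr7:57513076-57513225 (score 40, percentile 37.5). None of the 4 lay in a hotspot of replicate 2. The upstream one lay in a hotspot of replicate 1 with a −log10 q at the cap of 100. The other 3 overlapped hotspots of replicate 1 with values between 1.47 and 1.57, close to the lowest deposited value of 1.3. In replicate 2 both genes lay whole in a stretch of 1.30 Mb without a peak. A stretch of 1.09 Mb (chr7:56291986-57384235) was without a peak of either library. It ran from the intron 1 peak of Gabrg3 through the rest of the gene and past its 3′ end.

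Gabrb2 (ENSMUSG00000007653.12, chr11:42419757-42629028, plus strand, 209 kb), the beta subunit gene of the cluster on chromosome 11, had 1 shared peak, and it lay inside the gene. It was at chr11:42532636-42532785 in replicate 1 (score 58, percentile 59.8) and chr11:42532676-42532825 in replicate 2 (score 38, percentile 48.5), overlapping over 110 bp. This is intron 6 of the transcript Gabrb2-201, which has 10 exons, 113 kb from the start. Its hotspot had a −log10 q at the cap of 100 in replicate 1 and of 4.55 in replicate 2. Replicate 1 had a second peak next to it (chr11:42532476-42532625, score 36). Only its end overlapped the hotspot of replicate 2 (chr11:42532591-42532873). Replicate 2 had a peak downstream of the gene (chr11:42654336-42654485, score 20) that replicate 1 lacked. The shared peak is the Gabrb2 sequence printed above, and it held 1 match to TAATTA, the core bound by many homeodomain proteins. It was the only shared peak inside the 6 genes without a promoter peak.

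The members are long genes, with a median of 138 kb against 17.4 kb over all protein-coding genes. Over all genes, the median number of shared peaks in the body was 0 in genes under 25 kb, 9 in genes of 200 to 400 kb and 5 in longer ones. Among genes of 0.5 to 2 times their length, the share with as few shared peaks in the body was 14.6% for Gabrg1 (0 peaks, median 4), 13.9% for Gabra2 (0, median 5) and 14.5% for Gabra5 (0, median 4). It was 21.5% for Gabrb1 (0 peaks, median 7), 24.8% for Gabrg3 (0, median 5) and 23.3% for Gabrb2 (1, median 7). For Gabrd, which is short, it was 56.3% (1 peak, median 1). Each of the 6 longer genes thus shared its low count with 13.9% to 24.8% of the genes of similar length.

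**Figure D3:**
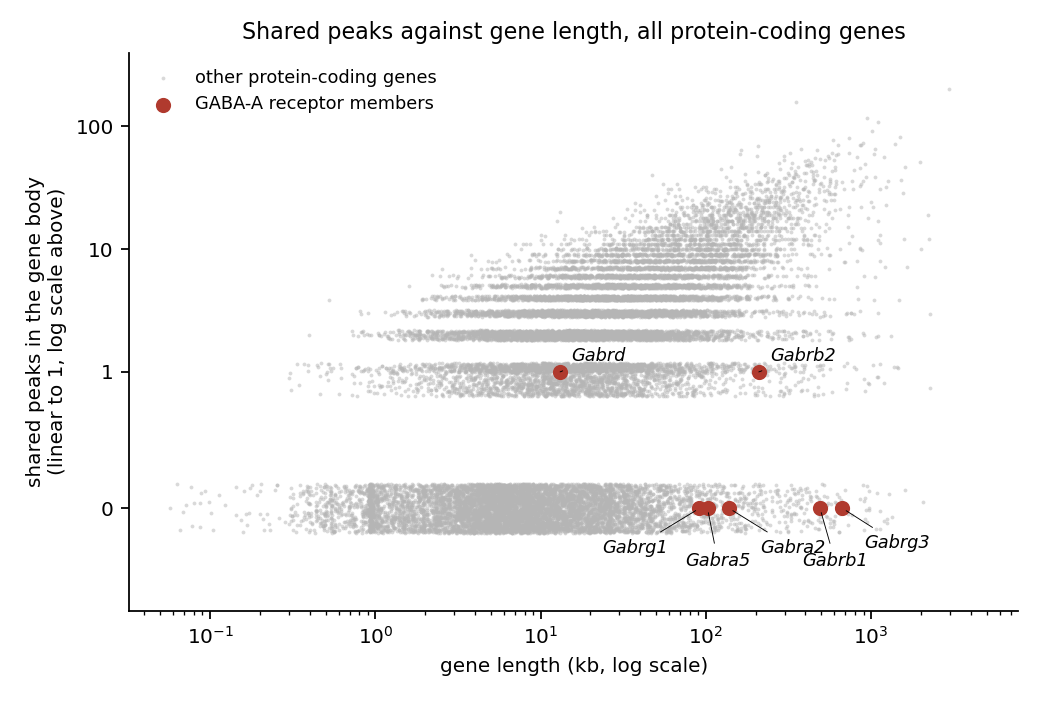
Shared peaks in the gene body (vertical axis, linear up to 1 and logarithmic above) against gene length (horizontal axis, kb, log scale) for all protein-coding genes (grey, moved at random a little up and down so that equal counts can be seen) and the 7 members (red). Gabra2, Gabra5, Gabrb1, Gabrg1 and Gabrg3 lie at 0, and Gabrd and Gabrb2 at 1.

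Base composition moved with the number of peaks over the genome. The windows of Gabrg1, Gabra2 and Gabrb2 were 36.1%, 37.1% and 37.2% G or C and fell in the lowest decile of all gene windows. In that decile 66.4% of genes had no shared peak in the window. Gabrb1 (38.9%) and Gabrg3 (40.4%) were in the second decile, where 42.9% had none, and Gabra5 (40.7%) in the third, where 24.9% had none. Gabrd (48.6%) was in the ninth, where 0.776% had none and the median was 17.3 shared peaks per 100 kb, against its 9.72. The 3 windows without a shared peak in the first 2 deciles (Gabrg1, Gabra2 and Gabrg3) had low GC windows in common with many other genes that lacked shared peaks; the part of base composition in the result was not tested.

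Promoter composition was described separately from that of the windows. The CpG observed/expected ratio within 1 kb of the outermost start was 0.532 at Gabrd, 0.346 at Gabrg1, 0.563 at Gabra2, 0.484 at Gabrb1, 0.540 at Gabrg3, 0.769 at Gabra5 and 0.447 at Gabrb2, against a median of 0.474 over all genes. Gabrd, Gabrb1 and Gabrg3 fell in the sixth decile of this ratio, in which the share of genes with promoter peaks in both was 79.1%. Gabra2 was in the seventh (84.1%) and Gabra5 in the ninth (88.7%). Gabrb2 was in the fifth (65.7%) and Gabrg1 in the fourth (42.5%). The Gabrd promoter thus lay between promoters without a peak in this ratio, with Gabra2, Gabrg3 and Gabra5 above it and Gabrb1, Gabrb2 and Gabrg1 below it.

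**Figure D4:**
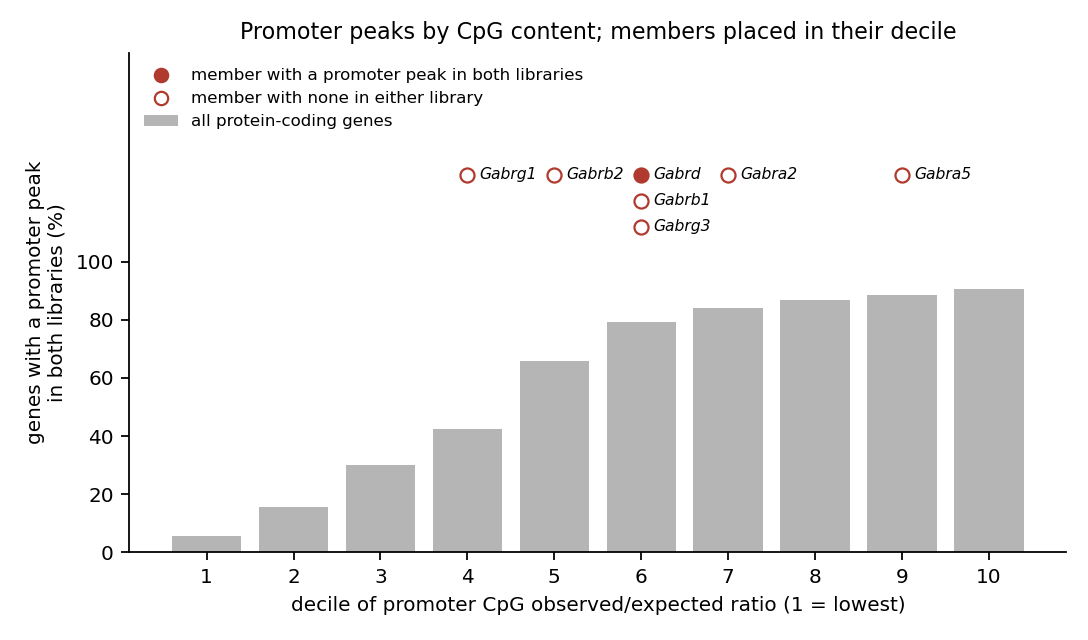
Percentage of all protein-coding genes with a promoter peak in both libraries (grey bars) by decile of the promoter CpG observed/expected ratio, with the 7 members placed above their decile, filled for Gabrd and open for the 6 genes without a promoter peak. The 6 open circles stand over bars between 42.5% and 88.7%.

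A further 9 GABA-A receptor subunit genes (Gabra3, Gabra4, Gabra6, Gabre, Gabrp, Gabrq, Gabrr1, Gabrr2 and Gabrr3) had a promoter peak in neither library. This held for 37.5% of all protein-coding genes. These 9 and the 7 members are not the whole family, so no count over all subunit genes is given. The median of the 9 was 0.852 shared peaks per 100 kb, against 7.76 over all genes. The single values differed widely. They were 0 at Gabra3, Gabra6 and Gabre, 0.53 at Gabra4 and 0.852 at Gabrq. Higher values were 3.82 at Gabrr3, 5.46 at Gabrp, 6.02 at Gabrr2 and 7.63 at Gabrr1. None of the 9 was in the upper 5 deciles of promoter CpG ratio, where 5 of the 7 members were.

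Genes for proteins that anchor and move GABA-A receptors gave other counts, over lists that do not hold every gene of their kind. A promoter peak in both libraries was present at 13 of 14, beside 58.9% of all protein-coding genes: Gphn, the gene of the scaffold gephyrin; Nlgn2, Lhfpl4, Shisa7 and Iqsec3, which act with it at inhibitory synapses; Gabarap, Gabarapl1 and Gabarapl2; and Trak1, Trak2, Ubqln1, Zdhhc3 and Nsf. Plcl1 had none in either library. Their median was 10.5 shared peaks per 100 kb, and all 14 were in the upper 5 CpG deciles. Many of them, such as Nsf and Ubqln1, also have general roles in cells without these receptors. The 3 listed genes of chloride transport (Slc12a2, Slc12a5 and Slc12a7) had a promoter peak in both libraries, among them Slc12a5, the chloride extruder KCC2 of mature neurons. The GABA-B receptor list had 4 of 5, including both receptor subunits Gabbr1 and Gabbr2, with none at Kctd8. From the outermost start, however, the nearest shared peak was 9.6 kb away at Gabbr2 and 5.12 kb at Slc12a7. The promoter peaks of these genes thus lay at other annotated start sites or did not overlap between the libraries.

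Of the 8 listed genes of GABA synthesis, packaging, uptake and breakdown, 4 had a promoter peak in both libraries: Gad1, one of the enzymes that make GABA, Slc6a12, and the breakdown enzymes Abat and Aldh5a1. Gad2, the vesicular transporter gene Slc32a1 and the uptake transporter genes Slc6a11 and Slc6a13 had none in either library. The glycine receptor genes, the other inhibitory chloride channels, had 0 of 5 in both libraries, with a peak at Glra2 in replicate 1 only. Among the excitatory channels, the nicotinic receptor list had 5 of 16 (Chrna3, Chrna4, Chrna5, Chrnb1 and Chrnb2) and the AMPA and NMDA receptor list 3 of 11 (Gria2, Grin1 and Grin2d). Each of these counts stands beside the share of 58.9% over all protein-coding genes, and none was compared with it by a test. At Gad1 and Grin2d the nearest shared peak lay 5.26 kb and 4.77 kb from the outermost start. Their promoter peaks thus lay at other annotated start sites or did not overlap between the libraries.

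**Figure D5:**
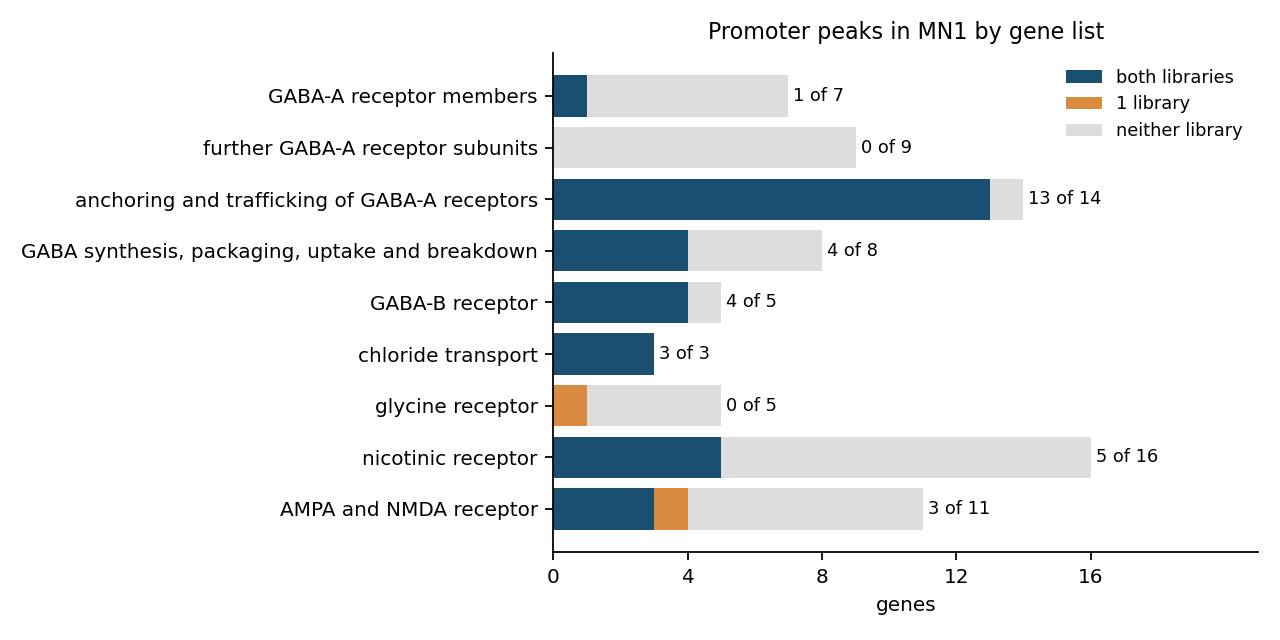
Number of genes (horizontal axis) with a promoter peak in both libraries (blue), in 1 library (orange) or in neither (grey) for the 7 GABA-A receptor members, at the top, and 8 lists of related genes, which do not hold every gene of their kind. The members have 1 of 7 and the anchoring and trafficking genes 13 of 14.

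Motifs were searched on both strands of the 12 shared peaks of the windows that lay outside promoters, and beside them in all 83239 such peaks of the genome. The AP-1 motif was searched as TGANTCA. The E-box was searched as CAGCTG. The CRE motif was searched as TGACGTCA. For GATA factors the letters were AGATAA. For homeodomain proteins they were TAATTA, and the longer CTCF and REST motifs were searched by their consensus. None of the short motifs contains another. AGATAA was in 3 of the 12 (25%, against 8.41% of all), but 2 of these are the overlapping peaks downstream of Gabrb1 and share 1 match. CAGCTG was in 2 of 12 (16.7%, against 15.7%), TGANTCA in 1 (8.33%, against 14.7%) and TAATTA in 1 (8.33%, against 4.97%), which is the Gabrb2 peak. TGACGTCA, CTCF and REST had no match, against 0.511%, 5.55% and 0.0288% of all such peaks. In 12 peaks, 1 match is 8.33%, so these shares are coarse. The Gabrg1 promoter held 2 overlapping matches to TAATTA, a motif found in 5.29% of the RefSeq promoters of this length.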

How the data were processed

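The authors deposited 1 list of peaks and 1 list of hotspots for each of the 2 biological replicates of MN1. Per the notes supplied with the files, each comes from the alignments of 1 library on mm10 after filtering, without pooling. Aligner, caller and threshold were not given in the sources used here. Deposited peaks carry a score between 1 and 150, and the deposited hotspots a −log10 q, with a lowest value of 1.3 and a cap of 100. Read depth is unknown. The labels name 2 sequencing instruments for replicate 2 and none for replicate 1.

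Rows that occurred again were dropped, 43 from the list of replicate 1 and 20 from that of replicate 2, and the 19 autosomes, X and Y were used. Genes and start sites came from GENCODE M21 on GRCm38, the assembly called mm10, with 1 entry kept per symbol. A peak was placed by its centre in promoters (within 1 kb of any start site), gene bodies and windows (body plus 50 kb). Sequences came from GRCm38 and, for promoters, from RefSeq, where 6 of the 7 genes had an entry. Counting was checked on simulated peaks with known overlaps. Python 3.11.15, pandas 2.3.3, numpy 2.4.6 and pysam 0.24.0 were used.

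No test was made, since there is 1 group. The members, lists, markers and motifs were chosen with earlier results of these data known. All 7 genes were named, all genes of each list were counted except some that are not reported here, counts over neighbouring genes are left out, and up to 3 shared peaks with the highest mean score percentile were named per place, beside the promoter peaks. Further single peaks were named after their values were seen. Alternatives changed the promoter width, the start sites, the flank, the overlap, the score and q thresholds and the libraries.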

Additional observations from a re-analysis of the deposited data

How the results depend on the processing

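The count of 1 gene of 7 with a promoter peak in both libraries held with promoters of 500 bp or 2.5 kb, with only the outermost start site, with an overlap of 0.5 of the peak, with peaks at or above the median score and in either library alone (1 to 1). With peaks in the highest 25% by score of each list it was 0. With that overlap all counts of shared peaks were as given. The 21 shared peaks in the windows (0.899 per 100 kb) became 12 (0.589) with a flank of 25 kb, 48 (1.68) with 100 kb and 2 (0.117) in gene bodies alone. They became 12 (0.514) at or above the median score and 6 (0.257) in the highest 25%. Counting all peaks of 1 library gave 29 to 34 peaks (1.24 to 1.46 per 100 kb). The mean hotspot share of 0.428% became 0.308% with a flank of 25 kb, 0.810% with 100 kb and 0.0799% in gene bodies, was 0.399% with a −log10 q of 2 or more, and ranged from 0.405% to 0.452% by library.

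By place, the 11 shared peaks at Gabrd on chromosome 4 became 7 (25 kb), 33 (100 kb), 1 (gene body) and 5 (highest 25%), and single libraries had 16 to 17. The 9 on chromosome 5 became 4 (25 kb), 0 (gene bodies), 3 (at or above the median score) and 1 (highest 25%), and single libraries had 10 to 12. The 0 on chromosome 7 became 3 with 100 kb, and single libraries had 0 to 4. The 1 on chromosome 11 became 0 at or above the median score and in the highest 25%, and single libraries had 2 to 2. A wider flank takes in other genes and a stricter score leaves fewer peaks, by construction. No paired analysis was possible because there is only 1 group. With the read depth unknown and 2 libraries, a place without a peak may hold openness below the threshold, and the 2 replicates give no measure of spread beyond their own difference.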
